A study of Mus musculus with 281 samples.

Results

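The genes described here encode the respiratory chain (complexes I to IV) and the ATP synthase (complex V), the 5 complexes of the mitochondrial inner membrane that carry out oxidative phosphorylation. They were chosen by name from the deposited table of transcript levels: symbols beginning with Nduf, Uqcr, Atp5, Sdha, Sdhb, Sdhc or Sdhd, or with Cox and a digit, and the mitochondrially encoded symbols beginning with mt-Nd, mt-Co, mt-Cy or mt-At. Of 43280 symbols, 120 matched. The 4 pseudogene symbols ending in -ps were left out, as were Cox7b2, Cox8b, Cox8c and Ndufa4l2, each listed at 0 in every cell. The 112 members that remained were 99 nuclear genes and the 13 protein-coding genes of mitochondrial DNA. The members closest to the limit of 1 TPM (transcripts scaled to a fixed total per cell and to transcript length, so that levels of different genes can be compared) were Cox7a1, Cox4i2 and Cox6a2, whose highest mean in any label was 1.13, 1.93 and 2.23 TPM. Pseudogene Atp5l-ps2, left out by name, reached 2.27 TPM.

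Complex I passes electrons from NADH, and complex II those from succinate, to ubiquinone; complex III passes them on to cytochrome c and complex IV to oxygen. Proton pumping by complexes I, III and IV drives the ATP synthase. Complex II is built from nuclear genes alone, whereas the other complexes join subunits of the nuclear and the mitochondrial genome, and dedicated assembly factors insert their metal centres and haem. In the marrow, blood progenitors differ in how far they rely on oxidative phosphorylation, and maturing neutrophils are known for few mitochondria and for glycolysis.

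Single cells were taken from the marrow of C57BL/6 mice, an inbred strain, and their RNA was sequenced along whole transcripts with SMART-seq2. The study examined the heterogeneity of granulocyte-monocyte progenitors (GMPs). The groups were 31 tpMo, 31 preNeu, 22 proneu, 95 and 10 Ly6C+GMP (in the title runs A and C described below), 45 Ly6C-GMP and 47 CMP cells. The tpMo gate was lineage-negative, CD115+, c-Kit-, CXCR4+ and Ly6C+. The preNeu gate was lineage-negative, Gr1+, CD11b+, c-Kit+ and CXCR4+, without CD115 and SiglecF. The CMP and both GMP gates shared lineage-negative, c-Kit+, Sca-1- and CD34+ cells; CD16/32 was low in CMP and high in the GMP gates, which were split by Ly6C. Among proneu cells, 21 carry the Ly6C+GMP gate in their labels and 1 carries none, and how proneu cells were set apart is not given in the sources used here. No label gave an age, a sex, a treatment or an animal. Each sample is therefore 1 cell and each label counts as 1 sample, so no test was possible, no p-value is given, and every SD is over cells and measures their spread.

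The cells were checked against markers. Secondary granule genes (Ngp, Camp, Ltf, Lcn2) summed to a median of 216479 TPM in preNeu cells, monocyte genes (Csf1r, Irf8, Ly86, F13a1, Ms4a6c, Ccr2, Fn1) to 5407 TPM in tpMo cells, and primary granule genes (Elane, Mpo, Prtn3, Ctsg, Ms4a3, Prss57) to 113350 TPM in proneu cells. Some cells went against their label: the same secondary granule sum reached 62135 TPM in a Ly6C+GMP cell and 68783 TPM in a Ly6C-GMP cell, and erythroid genes reached 8223 TPM in a CMP cell. Genes at 1 TPM or more numbered, in the median cell, 3082 in tpMo, 2373 in preNeu, 4204 in proneu, 4829 in Ly6C+GMP, 4514 in Ly6C-GMP and 3489 in CMP cells. In the median preNeu cell 47.1% of TPM belonged to its 20 most abundant genes; medians elsewhere ran between 14.2% (CMP) and 22.4% (proneu). Read depth is unknown, since TPM keeps none. By the stretches of their titles the cells fall into runs: A holds 95 Ly6C+GMP cells, B 31 CMP, 30 Ly6C-GMP and 1 proneu cells, C the other proneu and the other 10 Ly6C+GMP cells with all preNeu and tpMo cells, and H 16 CMP and 15 Ly6C-GMP cells. The labels do not say what a run is.

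Several members have near-identical copies elsewhere in the genome, and the levels listed for those members depend on how reads were shared out between them. For 11 members, 5 nuclear and 6 mitochondrial, a copy with at least 95% identity was itself listed at 1 TPM or more. Cox16 (chr12:81359026-81485127) shares its sequence with an overlapping gene, Gm20498 (chr12:81358860-81532905), at its own locus, and sums with copies include it. The mitochondrial copies form a block on chromosome 1 (GRCm38). The subunit gene mt-Nd4l, at chrM:9877-10173 on the plus strand, averaged 14.6 TPM over the 6 label means, whereas its copy Gm10222, at chr1:24612407-24612700 on the minus strand, averaged 1093 TPM. The pair is identical over 294 aligned bases, of which bases 118 to 177 are shown because the transcripts cannot be told apart there:
mt-Nd4l: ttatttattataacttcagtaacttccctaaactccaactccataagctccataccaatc
Gm10222: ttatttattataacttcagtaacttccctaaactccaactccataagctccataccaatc
The next pair, mt-Nd3 (4.67 TPM) and Gm28438 (63.3 TPM, chr1:24612775-24613119), differs over 345 bases at 1 position, T3C, counted from the transcript's first base and set in capitals:
mt-Nd3: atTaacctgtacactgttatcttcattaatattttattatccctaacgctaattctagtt
Gm28438: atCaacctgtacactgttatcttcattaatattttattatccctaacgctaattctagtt
Among the nuclear members, Atp5g1 (290.8 TPM over the labels, chr11:96068852-96075670, minus strand), a gene of the rotor ring of the ATP synthase, has the processed pseudogene Gm10039 (124 TPM, chr11:100361716-100362126). They differ over 411 bases at G437A, in capitals in these bases 407 to 463 of the Atp5g1 transcript:
Atp5g1: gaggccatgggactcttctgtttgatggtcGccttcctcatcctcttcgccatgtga
Gm10039: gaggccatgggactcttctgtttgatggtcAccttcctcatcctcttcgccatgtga

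RefSeq promoter windows (GRCm38.p6, 250 bases before and 50 after a start) were found for 80 of the 99 nuclear members, 86 windows in all. They were searched on both strands for sites of 3 factors known to act on respiratory genes. The NRF1 palindrome, whose 10 letters are the capitals in the Cox6a1 sequence, was in 8.14% of the member windows, against 2.66% of windows of genes averaging at least 50 TPM and 0.971% of all windows. The YY1 motif AAGATGGCG was in 9.30%, against 3.89% and 1.40%. The ETS motif CCGGAAGT was in 10.5%, against 11% and 3.89%. As an example, bases 250 to 51 before the start of Cox6a1 (chr5:115349009-115349208, minus strand), a complex IV subunit, hold the NRF1 palindrome in capitals, first base 162 before the start. The same stretch of Atp5g1 (chr11:96075682-96075881, minus strand), the member with the lowest difference in any comparison, holds none of the motifs:
Cox6a1: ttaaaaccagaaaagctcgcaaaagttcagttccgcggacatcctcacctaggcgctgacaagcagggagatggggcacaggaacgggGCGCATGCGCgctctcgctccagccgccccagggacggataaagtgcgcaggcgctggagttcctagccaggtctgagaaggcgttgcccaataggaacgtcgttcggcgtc
Atp5g1: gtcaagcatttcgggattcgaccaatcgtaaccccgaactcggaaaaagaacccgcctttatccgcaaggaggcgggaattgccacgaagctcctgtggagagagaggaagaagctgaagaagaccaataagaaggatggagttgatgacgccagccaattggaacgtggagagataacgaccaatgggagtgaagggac

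Summed over the 99 nuclear members, the share of a cell's transcripts was lowest in preNeu and highest in Ly6C-GMP cells. The median, with the lowest and highest cell, was 1.82% (1.24% to 2.41%) in tpMo, 0.965% (0.522% to 1.31%) in preNeu, 1.71% (1.36% to 2.18%) in proneu, 1.98% (1.18% to 2.56%) in Ly6C+GMP, 2.31% (1.34% to 2.84%) in Ly6C-GMP and 1.91% (1.00% to 2.69%) in CMP cells. The preNeu and proneu cells did not overlap, nor did the preNeu and Ly6C-GMP cells, whereas the preNeu range overlapped that of tpMo, Ly6C+GMP and CMP cells. The labels other than preNeu all overlapped each other. The 13 mitochondrially encoded members took a larger share and spread more: the median was 3.38% (0.745% to 5.93%) in tpMo, 1.45% (0.208% to 2.92%) in preNeu, 5.56% (3.01% to 9.94%) in proneu, 4.25% (2.02% to 8.29%) in Ly6C+GMP, 4.85% (2.13% to 8.37%) in Ly6C-GMP and 5.05% (1.82% to 10.3%) in CMP cells. Here too every preNeu cell was below every proneu cell.

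**Figure D1:**
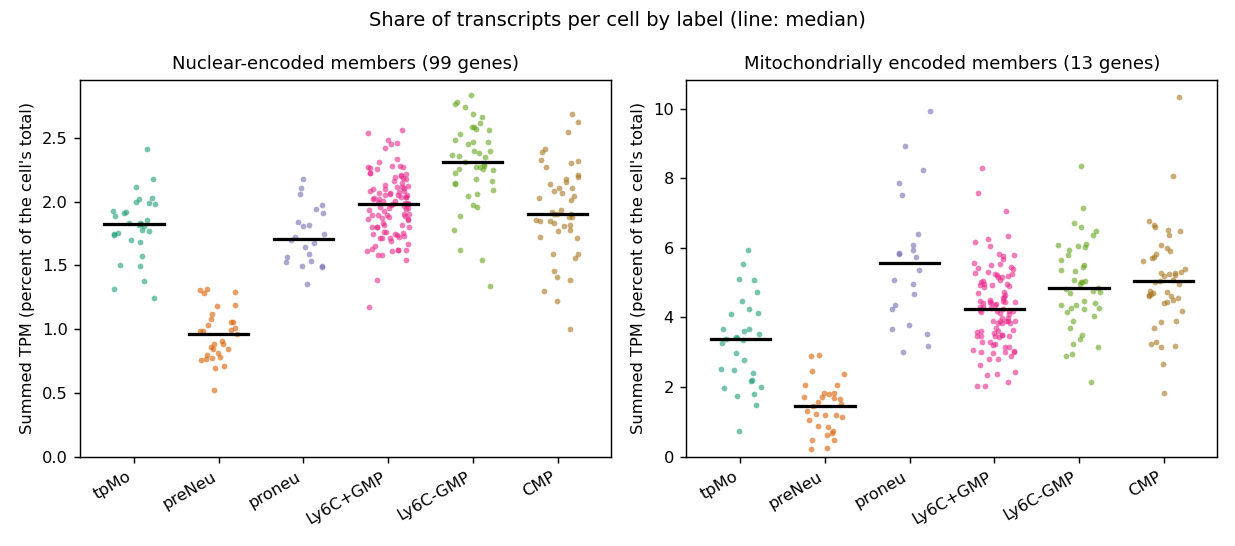
Each point is 1 cell, placed by its label; the vertical axes give the summed TPM of the 99 nuclear (left) and the 13 mitochondrially encoded (right) members as a percentage of the cell's total, and bars mark medians. The preNeu median is the lowest in both panels (0.965% and 1.45%), and the median of Ly6C-GMP is the highest for the nuclear and that of proneu for the mitochondrial sum.

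The nuclear and mitochondrial sums had different orders over the labels. The median ratio of the nuclear to the mitochondrial sum was 0.544 in tpMo, 0.620 in preNeu, 0.310 in proneu, 0.445 in Ly6C+GMP, 0.479 in Ly6C-GMP and 0.404 in CMP cells. The proneu ratios ran only to 0.580, whereas single preNeu cells reached 4.86. Within a label the sums hardly moved together: Spearman's rho across cells was 0.31 in tpMo (31 cells), -0.0028 in preNeu (31), 0.052 in proneu (22), -0.013 in Ly6C+GMP, 0.16 in Ly6C-GMP (45) and 0.10 in CMP (47). These are descriptions across cells of 1 label, whose values share the cell's total. The mitochondrial share moved with the number of genes detected in preNeu (rho 0.51) and tpMo cells (0.54), and the nuclear share did in CMP cells (0.46) but ran against it in proneu cells (-0.46).

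Between title runs of 1 label the medians differed less than those of preNeu and any other label. The nuclear median of Ly6C-GMP cells was 2.26% in run B and 2.48% in run H, and that of CMP cells 1.85% in run B and 2.13% in run H. For Ly6C+GMP cells it was 1.98% in run A and 2.01% in run C, and their mitochondrial median was 4.19% in run A and 5.29% in run C. Adding the copies raised the mitochondrial medians to 4.23% in tpMo, 1.78% in preNeu, 6.35% in proneu, 4.98% in Ly6C+GMP, 5.60% in Ly6C-GMP and 5.74% in CMP cells, and kept preNeu as the lowest and proneu as the highest label.

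Among the nuclear members, Atp5b, the catalytic beta subunit of the ATP synthase, was the most abundant by the mean of the 6 label means (1207 TPM). The highest of complexes III, IV and II were Uqcrc1, a core protein of complex III (1069 TPM), Cox4i1, the widespread form of its subunit (680 TPM), and Sdhd, a membrane anchor (434 TPM). The order of the 99 genes by mean TPM was similar in all labels: Spearman's rho between pairs of labels ran from 0.865 (preNeu with CMP) to 0.979 (proneu with Ly6C+GMP), across genes that are not independent. Ly6C-GMP cells had the highest mean of the 6 labels for 52 nuclear members, 52.5% of them, and for 15.9% of the 3393 genes averaging at least 50 TPM. They did so for 48 of the 79 structural subunits. The preNeu cells had the lowest mean for 79 nuclear members, 79.8%, against 59.4% of those 3393 genes. Ndufb7, an accessory subunit of complex I, was the 1 nuclear member highest in preNeu, at 173.3 ± 160 TPM (SD, 31 cells), against 124 ± 85 TPM in proneu cells. Of the 13 mitochondrial members, 9 (69.2%) had their highest mean in proneu cells as listed, and 9 did with copies added, against 13.6% of those 3393 genes.

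**Figure D2:**
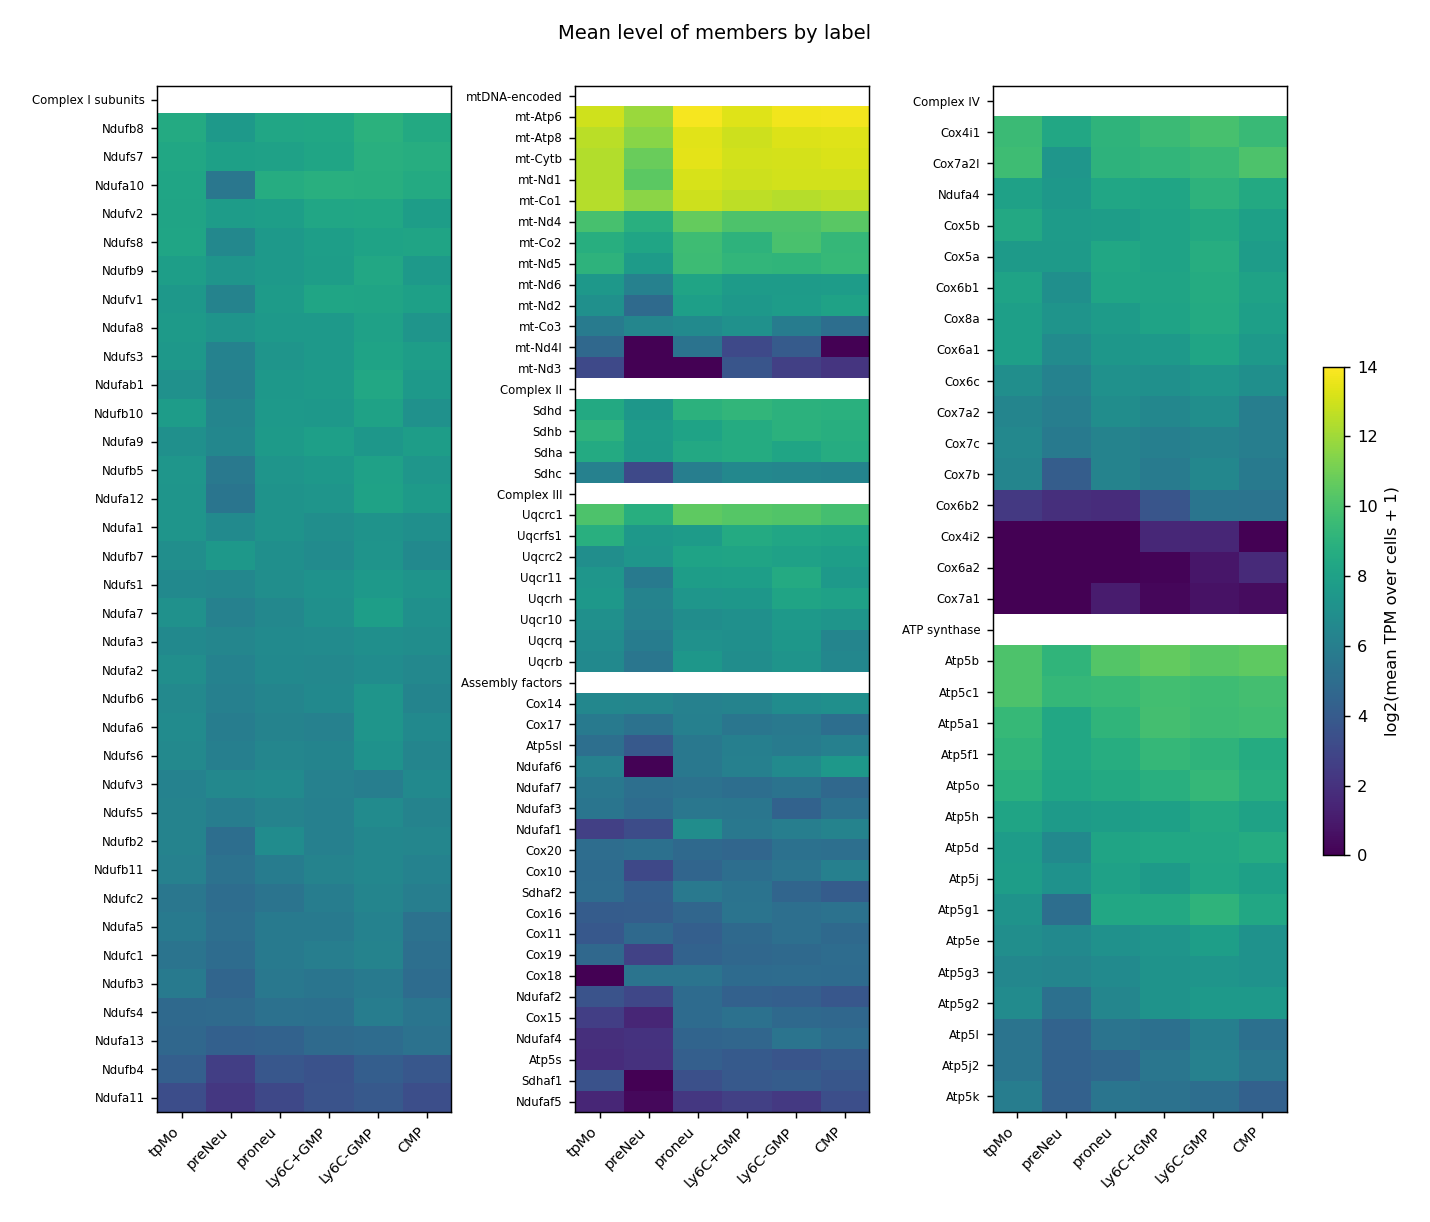
Colour gives log2 of the mean TPM over cells plus 1 for 111 of the 112 members (rows, by complex and falling mean) in the 6 labels (columns). The preNeu column is the darkest for most rows, and the 5 most abundant mitochondrially encoded members stand above all nuclear ones in each label.

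Where a subunit of complex IV has tissue isoforms, the widespread form carried nearly all transcripts. Cox4i1 held at least 99.7% of the Cox4i pair in each label, Cox6a1 at least 98.8% of the Cox6a pair, and Cox8a and Ndufa4 all of theirs. The muscle isoforms Cox6a2 and Cox7a1 were detected in at most 2 cells of any label. Cox6b2, the testis isoform of a complex IV subunit, was the exception. It averaged 4.02 ± 14.6 TPM in tpMo, 2.71 ± 10.6 TPM in preNeu, 2.43 ± 6.39 TPM in proneu, 11.8 ± 31.2 TPM in Ly6C+GMP, 43 ± 103.1 TPM among Ly6C-GMP and 40.8 ± 104.6 TPM among CMP cells, and made up 10.1% of the Cox6b pair in Ly6C-GMP and 13.2% in CMP cells. It came from few cells: 16 of 45 Ly6C-GMP cells (35.6%, exact Clopper-Pearson 95% interval 21.9% to 51.2%) and 13 of 47 CMP cells (27.7%, 15.6% to 42.6%) had at least 1 TPM, against 2 of 31 preNeu cells (6.45%, 0.791% to 21.4%). In Ly6C+GMP cells, at a lower mean, the share was 27.6% (19.3% to 37.2%). Such intervals cover counting error only. Without the highest cell its mean was 31 TPM among Ly6C-GMP and 28.8 TPM among CMP cells.

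The first comparison sets Ly6C-GMP against CMP cells, whose gates differ in CD16/32. Differences were taken between the labels' averages of log2(TPM + 1), a scale that compresses changes of low genes. The counts are of members at least 1 log2 unit higher or lower, among those with a mean of 1 TPM or more in either label. By this measure 52 of 98 nuclear members were higher in Ly6C-GMP cells and none lower, with a median of 1.10. Over all measured genes the median was 0.19, with 15.6% higher and 1.29% lower. Among the genes averaging at least 50 TPM it was 0.79, with 40.8% higher and 1.83% lower. Structural subunits made up 50 of the 52: 26 of 36 in complex I (median 1.6), 3 of 4 in complex II (1.42), 5 of 8 in complex III (1.41), 9 of 15 in complex IV (1.19) and 7 of 15 in the ATP synthase (0.75). Of the 20 assembly factors 2 were higher, with a median of 0.66. The 13 mitochondrial members had a median of 0.14, with 1 higher as listed and none with copies added.

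The member with the largest difference was Ndufb10, an accessory subunit of complex I. It had a median of 235 TPM (0 to 670.2) in Ly6C-GMP cells, against 103.3 TPM (0 to 459.5) in CMP cells, and averaged 263 ± 147 TPM among Ly6C-GMP and 133 ± 133 TPM among CMP cells. The ranges overlapped, but 97.8% of Ly6C-GMP cells had it at 1 TPM or more, against 66% of CMP cells. Its difference was 2.88. Uqcrq of complex III (2.27) and Ndufa5, Ndufc1 and Ndufa8 of complex I (2.26, 2.26 and 2.19) followed. At the other end were Atp5b (-0.21) and Cox7a2l (-0.01); Cox7a2l joins complexes III and IV into supercomplexes, and C57BL/6 mice carry a shortened form of it. The labels also differed in detection. A median of 91.1% of Ly6C-GMP cells and 76.6% of CMP cells had a nuclear member at 1 TPM, and 93 of 98 members (94.9%) were detected in a larger share of Ly6C-GMP cells, against 82.9% of genes of at least 50 TPM. The ratio of mean TPM had a median of 1.28 over members, against 0.951 over those genes. The mean TPM was higher for 76 of 98 members (77.6%), against 44.6% of genes of at least 50 TPM. Within run B the median was 1.29, with 61 of 97 members higher and none lower, beside 47.7% higher and 2.56% lower among genes of at least 50 TPM. Within run H it was 0.79, with 43 of 98 higher and 4 lower, beside 34% higher and 8.93% lower. The members named above also differed between runs B and H. Ndufb10 was at 3.39 in run B and 1.89 in run H, and Uqcrq at 3.11 and 0.65. Ndufa5 was at 2.89 and 1.04, Ndufc1 at 2.85 and 1.10, and Ndufa8 at 2.77 and 1.04. Atp5b was at 0.19 in run B and -0.98 in run H. Stem and multipotent progenitor genes summed to a median of 493 TPM among Ly6C-GMP and 1159 TPM among CMP cells, and primary granule genes to 53561 TPM among Ly6C-GMP and 4204 TPM among CMP cells. Basophil and mast cell genes averaged 884 TPM among Ly6C-GMP cells, with 6938 TPM in the highest, against 276 TPM among CMP cells. CMP cells had fewer genes detected. The part of these in the difference was not tested.

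In Ly6C+GMP against Ly6C-GMP cells few nuclear members passed 1 log2 unit, while most had a lower mean TPM. Of 97 nuclear members 4 were higher and 3 lower, the median being -0.16, while 9.87% of all measured genes were higher and 1.35% lower, and those of at least 50 TPM had a median of 0.46, with 24.8% higher and 2.03% lower. The 4 were Ndufa9, an accessory subunit of complex I (2.00), Ndufaf3, a complex I assembly factor (1.2), Sdhaf2, which attaches FAD to complex II (1.11), and Atp5g3 (1.10). The 3 lower were Ndufa6 (-1.36), Atp5l (-1.08) and Cox20 (-1.01). With its copy Gm10221 added, Atp5l was at -0.51. Ndufa6 had a median of 60.04 TPM (0 to 270.8) in Ly6C+GMP cells, against 147 TPM (5.13 to 571.6) in Ly6C-GMP cells; the ranges overlapped widely. Mean TPM was lower in Ly6C+GMP cells for 72 of 97 members (74.2%), against 47.3% of genes of at least 50 TPM. Detection was higher for 69 of 97 (71.1%), against 78.1% of those genes. Genes of mitosis went another way, with 16 of 20 higher in Ly6C+GMP cells. The labels share no title run, so title run and cell label cannot be told apart here.

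The proneu cells carried mostly the Ly6C+GMP gate and were set against Ly6C+GMP cells. Of 98 nuclear members 1 was higher and 16 lower (median -0.36); the background was 2.20% higher and 15.9% lower over all measured genes, and 3.33% higher and 34.4% lower (median -0.62) among genes of at least 50 TPM. The nuclear core subunits of complex I, which carry its electron path, were lower in 5 of 7, against 3 of the 29 accessory subunits. Ndufv1, which binds NADH, had a median of 173 TPM (0 to 633.2) in proneu cells, against 294 TPM (0 to 1061) in Ly6C+GMP cells, and a difference of -1.87. Sdhc, a membrane anchor of complex II, was at -1.93, and Uqcrfs1, the Rieske iron-sulphur protein of complex III, at -1.70. In each of these the labels overlapped. The 1 higher member was Ndufaf1, a complex I assembly factor, at 118 ± 176 TPM in proneu cells and 48.2 ± 82.8 TPM in Ly6C+GMP cells, a difference of 1.42. Mitochondrially encoded members went the other way, with a median of 0.35 and none past 1 log2 unit. Their mean TPM was higher in proneu cells for 11 of 13 as listed (84.6%) and for 12 with copies added, against 37.9% of genes of at least 50 TPM. The gap in their summed share was narrower within run C, with medians of 5.75% in proneu and 5.29% in Ly6C+GMP cells. Over all cells these medians were 5.56% and 4.25%. The median difference of 0.35 ran from 0.28 to 0.44 under the alternatives, run C alone among them. Within run C, 2 nuclear members were higher and 29 of 97 lower, with a median of -0.50, beside 5.75% higher and 34.1% lower among genes of at least 50 TPM. Primary granule genes summed to a median of 113350 TPM among proneu and 71103 TPM among Ly6C+GMP cells, and monocyte genes to 91.2 TPM among proneu and 1455 TPM among Ly6C+GMP cells. Ly6C+GMP cells also had more genes detected. The part of these in the result was not tested. They stand in 3 of the comparisons, which therefore share cells.

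The preNeu cells had the lowest levels, and preNeu against proneu had the most nuclear members past 1 log2 unit of the 6 comparisons. Of 97 nuclear members none was higher and 84 were lower, with a median of -1.84. This was close to the background of genes of at least 50 TPM, of which 75.3% were lower (4.89% higher), with a median of -2.10; over all measured genes 3.58% were higher and 39.8% lower. The mitochondrial members stood further down, with 10 of 12 lower and a median of -3.26 as listed, and 13 of 13 lower with copies added. The secondary granule sum, a median of 216479 TPM in preNeu and 130 TPM in proneu cells, moved with these differences, as did the primary granule sum, with 811 TPM in preNeu and 113350 TPM in proneu cells. Their part in the differences was not tested. When each cell was rescaled without mitochondrial genes and the 20 genes highest over all labels, the preNeu median of the nuclear sum was 1.61%, against 2.14% in proneu cells. Then 78 nuclear members were lower, beside 39.6% lower and 4.42% higher over all measured genes. The share among genes of at least 50 TPM was not worked out after this rescaling. By complex the median was -3.43 for complex II, -3.31 for complex III, -2.19 for complex I, -1.75 for the ATP synthase and -1.56 for complex IV.

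The ATP synthase rotor gene Atp5g1 had the largest difference. Its median was 0 TPM (0 to 380.3) in preNeu cells, against 266 TPM (94.8 to 624.6) in proneu cells. It was detected in 8 of 31 preNeu cells (25.8%, exact 95% interval 11.9% to 44.6%) and in all 22 proneu cells, a difference of -6.56, or -7.04 with its copy Gm10039 added. The other genes of the same ring protein, which make the identical mature subunit, were also detected in few preNeu cells, Atp5g2 and Atp5g3 in 10 of 31 each. Ndufa10 of complex I followed, with 46.6 ± 150 TPM in preNeu and 402 ± 333 TPM in proneu cells (-5.83). Cox7a2l had a median of 0 TPM (0 to 1028) in preNeu cells, against 467 TPM (3.17 to 1370) in proneu cells (-5.31). Sdhd was at -4.50 and Uqcrb of complex III at -4.41. At the upper end were Cox20, which helps to mature a complex IV core subunit (0.29), and Ndufb7 (0.20), neither past 1 log2 unit. Detection was lower in preNeu cells: a median of 51.6% of cells had a nuclear member at 1 TPM, against 90.9% of proneu cells. For genes of at least 50 TPM these medians were 35.5% in preNeu and 68.2% in proneu cells. As a ratio of mean TPM the median member was 0.570 times as high, close to the 0.553 of those genes.

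**Figure D3:**
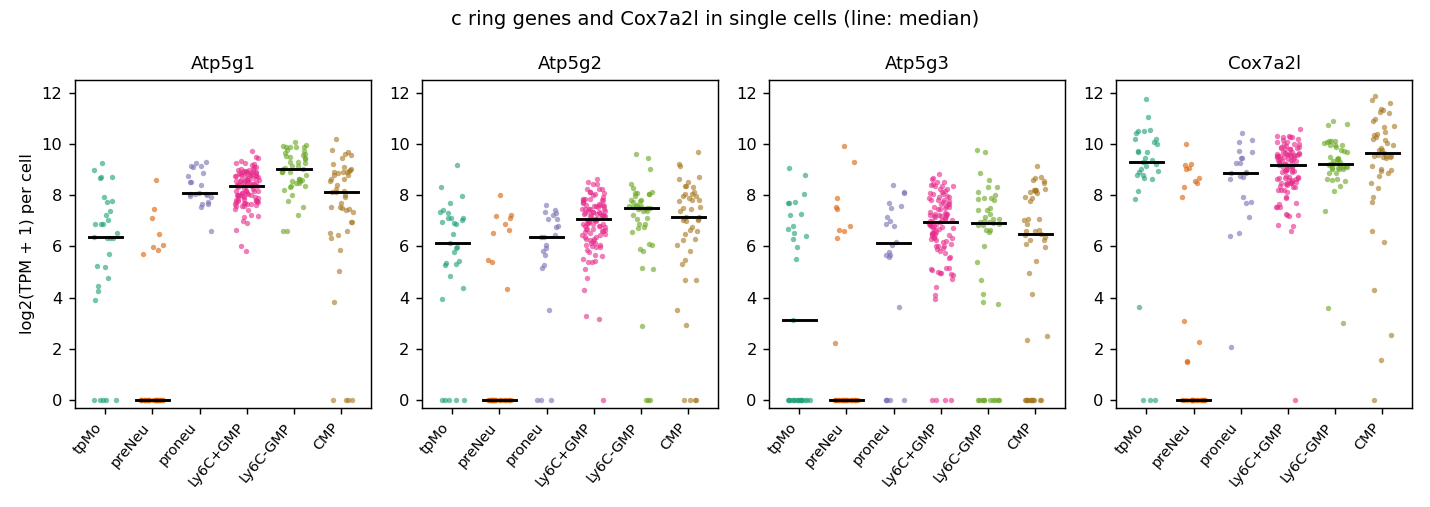
Points are single cells by label, bars medians, and the vertical axis is log2(TPM + 1) for the 3 genes of the rotor ring protein and for Cox7a2l. The median is at 0 in preNeu for all 4 genes, while Atp5g1 is above 0 in every proneu, Ly6C+GMP and Ly6C-GMP cell.

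The tpMo cells, of the monocyte lineage, were set against Ly6C+GMP cells. None of 97 nuclear members was higher and 47 were lower, with a median of -0.95. The background of genes of at least 50 TPM was lower in 65.4% (5.01% higher), with a median of -1.55, and over all measured genes 3.19% were higher and 32.9% lower. As a ratio of mean TPM the median member was 0.944 times as high, and 41 of 97 means (42.3%) were higher in tpMo cells. Both were near the genes of at least 50 TPM, with a median ratio of 0.889 and 1426 of 3393 means higher. The median member was detected in 80.6% of tpMo cells, against 97.1% of Ly6C+GMP cells. For genes of at least 50 TPM these medians were 54.8% in tpMo and 81.9% in Ly6C+GMP cells. The nuclear core of complex I was lower in 6 of 7, complex II in 3 of 4, assembly factors in 14 of 20, and complex IV subunits in 1 of 14. Ndufa9 had a median of 0 TPM (0 to 750.4) in tpMo cells, against 199.1 TPM (0 to 706.9) in Ly6C+GMP cells, and a difference of -4.09. It was detected in 41.9% of tpMo cells and in 89.5% of Ly6C+GMP cells. Uqcrc2, a core protein of complex III, was at -3.86, Ndufv1 at -3.58, Atp5g3 at -3.04 and Cox15, an enzyme of haem A synthesis, at -2.76. The highest differences were small: Atp5k (0.35), Cox5b (0.34) and Ndufa1 (0.13). Cox18, which inserts a mitochondrially encoded subunit of complex IV into the membrane, was listed at 0 in all 31 tpMo cells, which allows a share of up to 11.2% of cells (exact 95% interval). Within run C, 54 of 96 were lower and none higher, with a median of -1.26, beside 62.3% lower and 7.66% higher among genes of at least 50 TPM. The mitochondrial members had 4 of 13 lower and a median of -0.69 as listed, and 5 lower with copies added. With its copy mt-Co2 was no longer among them (-0.39, against -1.22 as listed), whereas mt-Nd3 (-1.68, against -0.05) and mt-Nd4l (-2.55, against 0.22) were. The monocyte sum was a median of 5407 TPM in tpMo and 1455 TPM in Ly6C+GMP cells, the primary granule sum 1332 TPM in tpMo and 71103 TPM in Ly6C+GMP cells, and tpMo cells had fewer genes detected; the part of these was not tested.

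Between the later cells, tpMo against preNeu, 63 of 96 nuclear members were higher and none lower, with a median of 1.48, beside 26.3% higher (4.53% lower) over all measured genes and 55.7% higher and 6.28% lower (median 1.2) among genes of at least 50 TPM. All 31 cells of each label are in run C. Structural subunits made up 61 of the 63, and 2 of 20 assembly factors were higher. Cox7a2l had a median of 617 TPM (0 to 3423) in tpMo cells, against 0 TPM (0 to 1028) in preNeu cells, a difference of 5.33. Ndufs8, an iron-sulphur subunit of complex I, was at 4.16, Atp5g1 at 3.94 (4.36 with its copy), Ndufa10 at 3.86 and Ndufa12 at 3.65. All 4 genes of complex II were higher, from Sdhc at 70.4 ± 95.8 TPM in tpMo and 7.49 ± 27.4 TPM in preNeu cells (2.11) to Sdhb at 523 ± 492 TPM in tpMo and 201 ± 255 TPM in preNeu cells (3.28). The lowest were Ndufv3 (-0.81), Cox20 (-0.75) and Ndufb7 (-0.07). The 13 mitochondrial members had a median of 2.08 with 8 higher as listed, and of 2.42 with 12 higher once copies were added. The 4 gained were mt-Co2 (1.2, against 0.76 as listed), mt-Co3 (2.60, against -0.02), mt-Nd3 (2.29, against 0.42) and mt-Nd4l (3.10, against 0.31). The copy moved mt-Atp6 to 1.23, against 1.81 as listed, and mt-Co1 to 0.76, against 0.93. Median-ratio scaling moved the median of all genes in this comparison by -0.10 and in preNeu against proneu by 0.15. The nuclear counts were then 45 higher and 2 lower for tpMo against preNeu, and 60 lower and 1 higher for preNeu against proneu. Over all measured genes 21.5% were then higher and 6.51% lower for tpMo against preNeu. For preNeu against proneu 34.3% were lower and 5.20% higher. Shares among genes of at least 50 TPM were not worked out under this scaling. The nuclear medians under this scaling were 0.96 for tpMo against preNeu and -1.32 for preNeu against proneu.

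**Figure D4:**
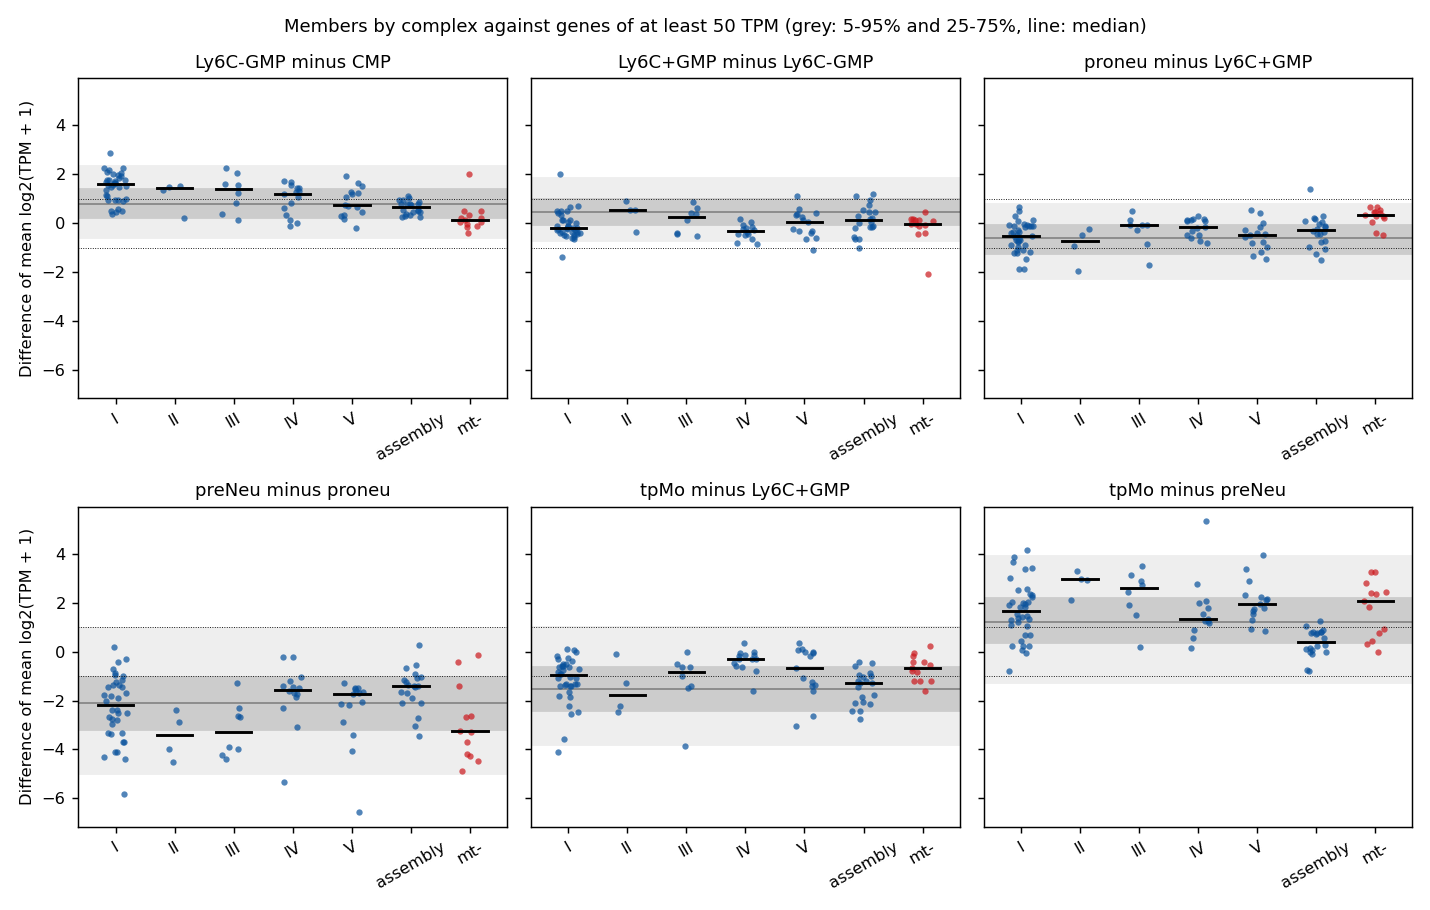
Each point is a member's difference of mean log2(TPM + 1) in 1 of the 6 comparisons, by complex for nuclear subunits, for assembly factors and for mitochondrially encoded members (red); bars are medians, the grey bands cover the middle of genes of at least 50 TPM and the dotted lines 1 log2 unit. In Ly6C-GMP minus CMP the complex I median (1.6) lies above the grey median (0.79), and in preNeu minus proneu the mitochondrial median (-3.26) lies below it (-2.10).

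The mitochondrially encoded members are transcribed together as long precursors; their levels were uneven. In Ly6C+GMP cells mt-Atp6 gave 23.9% of their sum, mt-Cytb 19.6%, mt-Atp8 17.9%, mt-Nd1 17.9% and mt-Co1 14.3%, and the other 8 genes gave the rest. The complex III gene mt-Cytb had a median of 5263 TPM (714.9 to 11255) in tpMo, 1277 TPM (8.05 to 5761) in preNeu, 10664 TPM (3644 to 23981) in proneu, 8005 TPM (3073 to 15525) in Ly6C+GMP, 7946 TPM (2241 to 16701) in Ly6C-GMP and 9076 TPM (2920 to 16792) in CMP cells. The complex I gene mt-Nd1 had a median of 1074 TPM (0 to 4834) in preNeu cells, against 8110 TPM (4018 to 15193) in proneu cells, with some overlap, and a difference of -4.17. In preNeu cells the makeup of the sum was shifted as well: mt-Nd1 gave 9.91% of it, against 15.9% in proneu cells, and mt-Co1 gave 21.6%, against 13.7%.

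The low values of mt-Co3, mt-Nd3 and mt-Nd4l stood beside higher values of their copies. How reads were assigned within these pairs was not tested. Not every identical copy was listed high: Gm28439, identical to mt-Nd4 over 876 bases, averaged 0.359 TPM over the label means. The row mt-Co3 averaged 56.3 TPM in tpMo, 83.8 in preNeu, 101.97 in proneu, 134 in Ly6C+GMP, 58.8 among Ly6C-GMP and 31.8 TPM among CMP cells, whereas Gm28437, identical over 783 bases, averaged 2025, 716, 2116, 1854, 2459 and 1926 TPM in the same labels. From the row alone mt-Co3 was at -0.14 in preNeu against proneu cells; with the copy it was at -2.81. Likewise mt-Nd4l was listed at 0 in all preNeu and CMP cells, and Gm10222 averaged 393 TPM in preNeu and 1369 TPM in CMP cells. With the copy, mt-Nd4l was at -6.01 in preNeu against proneu cells. The 1 mitochondrial member past 1 log2 unit in Ly6C-GMP against CMP cells was mt-Co2 (2.01, and -2.06 in Ly6C+GMP against Ly6C-GMP cells); with its identical copy Gm28661 it was at 0.64 and -0.80, and neither passed 1 log2 unit.

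**Figure D5:**
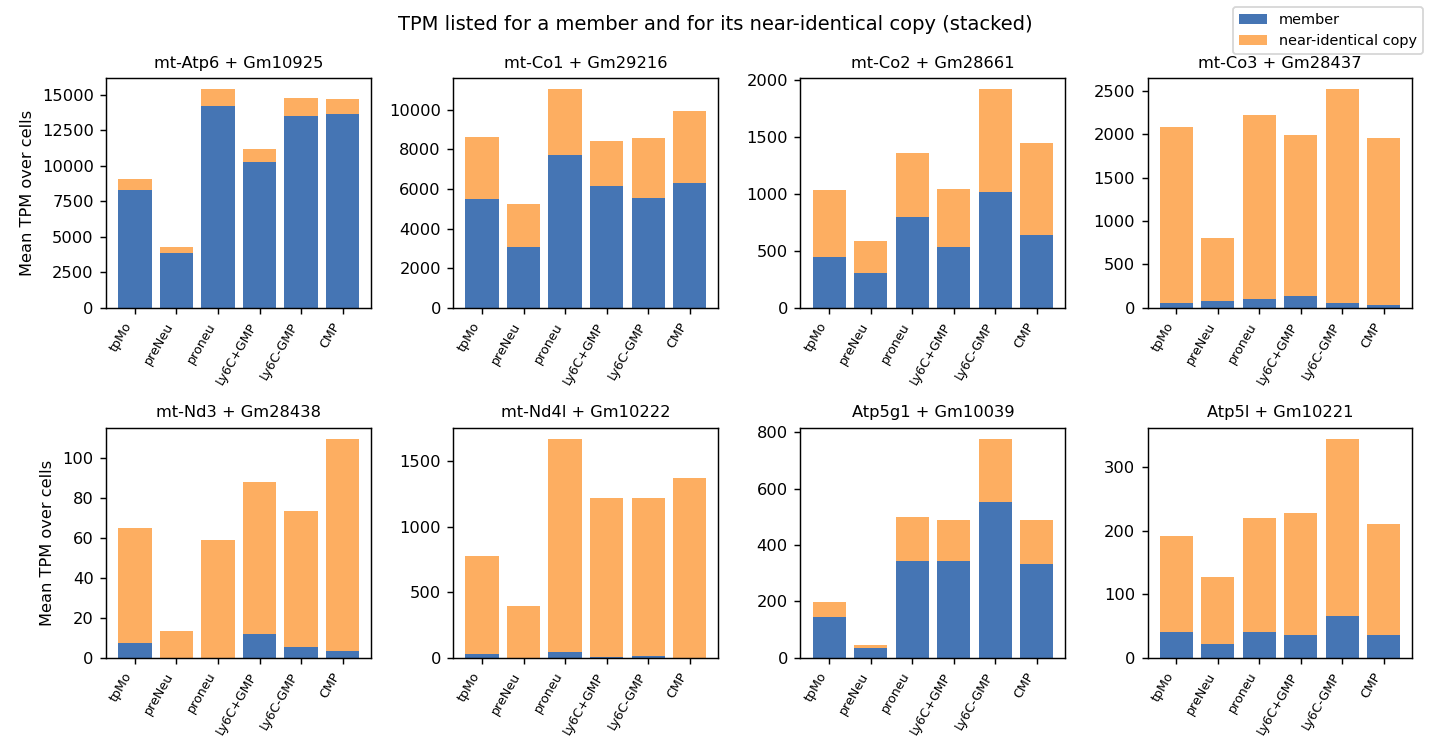
Stacked bars give the mean TPM over cells listed for a member (blue) and for its near-identical copy (orange) in each label. The copy holds most of the sum for mt-Co3, mt-Nd3, mt-Nd4l and Atp5l, and the smaller part for mt-Atp6, mt-Co1 and Atp5g1.

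Other genes of the pathway lie outside the name rule and were taken by list. In Ly6C-GMP against CMP cells 4 of 18 electron carrier and feeder genes were higher, such as Etfa, which passes electrons from fatty acid oxidation (354 ± 217 TPM among Ly6C-GMP and 245 ± 290 TPM among CMP cells, 2.54), as were 9 of 30 assembly factors with other names and 48 of 77 mitochondrial ribosomal protein genes. Of the genes of at least 50 TPM 40.8% were higher. The shares of the first 2 lists were below this background and that of the ribosomal list above it. Over all measured genes 15.6% were higher, and the share of each of these lists was above that. In preNeu against proneu cells 75 of 77 mitochondrial ribosomal protein genes, 12 of 13 citric acid cycle genes and 10 of 13 genes of ATP synthase partners and ADP/ATP exchange were lower, none higher, beside 75.3% lower among genes of at least 50 TPM. Cytochrome c (Cycs) averaged 20.2 ± 39.5 TPM in preNeu and 136 ± 54.1 TPM in proneu cells (-4.58). Slc25a5, the main ADP/ATP carrier of these cells, averaged 292 ± 381 TPM in preNeu and 1374 ± 807 TPM in proneu cells (-4.48). In tpMo against Ly6C+GMP cells all 13 citric acid cycle genes were lower, with a median of -3.05, as were 64 of 77 mitochondrial ribosomal protein genes, beside 65.4% of genes of at least 50 TPM. In tpMo against preNeu cells 12 of 13 genes of the exchange list were higher, beside 55.7% of genes of at least 50 TPM, among them Slc25a4, the other ADP/ATP carrier, at 213 ± 176 TPM in tpMo and 0.406 ± 0.755 TPM in preNeu cells (5.67).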

How the data were processed

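Marrow cells were sorted 1 by 1 through the gates above. The labels' protocols name picopure buffer for extraction, a modified SMART-seq2, Nextera XT libraries and paired-end reads from an Illumina HiSeq. TPM values for all cells stand in a single table that the authors deposited. RSEM 1.2.19 and the build GRCm38 are named in the submitters' processing notes; the sources used here name no aligner, annotation or filter. TPM is scaled to length and to the cell's total (998703 to 1000000), so it keeps no depth, and 1 abundant gene lowers all others. RSEM shares out reads of near-identical copies by estimate. Groups follow the label for cell type, no cell was left out, doublets were not called, and no pair of cells had identical values.

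The effect was the difference of the averages over cells of log2(TPM + 1), for genes with a mean of 1 TPM in either label, with no test. The script was checked on simulated cells in which detection was the same in both labels. That check does not cover labels that differ in detection, as preNeu and proneu cells do. The background was all such genes, and the 3393 genes with a mean of 50 TPM over all cells. Named genes were the mitochondrial members, the most abundant nuclear member of each complex, isoform families, and per comparison up to 5 members each way with the largest difference, at 20 TPM and 50% detection in the higher label; for other lists, up to 3 with at least 5 TPM; 1 gene that this rule names is not reported here. Ndufb7 as the highest in preNeu, Cox18, Sdhb, Sdhc in tpMo and the genes beside the chain were named after their values were seen. Members and lists were chosen with earlier results of these data known. Copies were found with blastn 2.17.0 against GENCODE M21 transcripts. Python 3.11.15, numpy 2.4.6, pandas 2.3.3 and scipy 1.17.1 were used. Alternatives were other pseudocounts, no filter, ratios of mean TPM, other scalings, single title runs, leaving out each gene's highest cell and, added after the data were seen, copies and Ly6C+GMP cells of run C. Positions count from 1.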

Additional observations from a re-analysis of the deposited data

How the results depend on the processing

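Of 212 values under alternatives 181 stayed within the limits set for a move, 31 moved and none that was past 1 log2 unit changed sign. Counts of nuclear members past 1 log2 unit depended most on low values. The share of all genes past this limit was not worked out for other pseudocounts or for ratios of mean TPM. Nor was it for Ly6C+GMP cells of run C against Ly6C-GMP cells. Such counts therefore describe the members alone and cannot be set against all genes. With a pseudocount of 10 TPM the count was 25 in Ly6C-GMP against CMP, 2 in Ly6C+GMP against Ly6C-GMP, 3 in proneu against Ly6C+GMP, 53 in preNeu against proneu and 20 in tpMo against Ly6C+GMP; the medians were -1.09 in preNeu against proneu, -0.42 in tpMo against Ly6C+GMP and 0.86 in tpMo against preNeu. With 0.1 TPM the counts were 16 in Ly6C+GMP against Ly6C-GMP and 29 in proneu against Ly6C+GMP, and the medians -2.75 in preNeu against proneu and -1.49 in tpMo against Ly6C+GMP. As the log2 ratio of mean TPM the counts were 4, 3, 3, 40, 11 and 39 in the order of the report, and the nuclear medians -0.81, -0.083 and 0.81 in the last 3 comparisons, with -1.89 for mitochondrial members in preNeu against proneu. Ly6C+GMP against Ly6C-GMP had 14 with run C cells alone and 4 with structural subunits alone, and proneu against Ly6C+GMP had 31 within run C. Rescaled without mitochondrial and the 20 most abundant genes, the nuclear medians were 2.23% in tpMo, 1.61% in preNeu, 2.14% in proneu, 2.40% in Ly6C+GMP and 2.78% in Ly6C-GMP cells, and the mitochondrial median 2.55% in preNeu cells. Medians near 0 changed sign in Ly6C-GMP against CMP (mitochondrial, -0.038 in run H, -0.030 from mean TPM) and in Ly6C+GMP against Ly6C-GMP (nuclear, 0.039 with run C cells; mitochondrial, 0.15 with median-ratio scaling, 0.016 rescaled as above and 0.072 without each gene's highest cell). Beyond their construction, the cause of these moves was not tested. No paired analysis was possible because cells carry no shared replicate number.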

Other observations

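Of the genes beside the chain, Ucp2 had other extremes over the labels than the nuclear sum. By mean TPM, Atpif1 and Cyc1 were, like that sum, highest in Ly6C-GMP and lowest in preNeu cells. Ucp2, a carrier of the inner membrane, averaged 1054 ± 701 TPM in tpMo, 289 ± 331 in preNeu, 137 ± 154 in proneu, 436 ± 322 in Ly6C+GMP, 251 ± 215 among Ly6C-GMP and 411 ± 393 TPM among CMP cells (SD over cells), highest in tpMo cells. Atpif1, the inhibitor of the ATP synthase, averaged 179 ± 180 TPM in tpMo, 87.9 ± 102.7 in preNeu, 287 ± 159 in proneu, 266 ± 116 in Ly6C+GMP, 412 ± 198 among Ly6C-GMP and 405 ± 294 TPM among CMP cells. Cyc1, the cytochrome c1 of complex III, whose symbol lies outside the name rule, was detected in 51.6% of preNeu cells, against 95.5% of proneu cells.

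Glycolysis genes summed to a median of 1.13% of TPM in tpMo, 0.993% in preNeu, 1.38% in proneu, 1.51% in Ly6C+GMP, 1.21% in Ly6C-GMP and 0.943% in CMP cells. In preNeu cells the glycolysis sum was thus about level with the nuclear respiratory sum (0.965%), while in Ly6C-GMP cells it was 1.21% beside 2.31%. Gpi1, a glycolytic isomerase, averaged 504 ± 478 TPM in tpMo and 1432 ± 964 TPM in preNeu cells, a difference of -3.22 against the direction of most members. The other glycolysis genes named by the same rule in tpMo against preNeu cells, Pfkp (2.37) and Hk2 (2.13), were higher in tpMo cells. In preNeu against proneu cells the glycolysis genes so named were all lower: Pfkl (-5.22), Pfkp (-4.38) and Hk3 (-3.86).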
